A study of Mus musculus with 28 samples.

Results

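The HoxB cluster is a run of homeobox genes on mouse chromosome 11, and 8 of its genes, Hoxb2, Hoxb3, Hoxb4, Hoxb5, Hoxb6, Hoxb7, Hoxb8 and Hoxb9, are described here. They were chosen by name in the deposited expression table, 8 of 17295 genes, and each passed the filter on low values that left 16275 genes for testing. RNA sequencing covered 28 libraries of mouse cells in 14 groups of 2. Of these groups, 10 were lines of induced neural stem cells (miNSC), obtained by transducing fibroblasts with doxycycline-inducible lentiviruses of transcription factors. Every miNSC group carried eSox17FNV (written F), an engineered form of the transcription factor Sox17, and K. The letters B and M stand for further factors that the labels do not spell out. Doxycycline was given at 1 μg/mL for 18 days, and colonies picked at day 20 were expanded in medium with bFGF and EGF.

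Embryonic fibroblasts (MEF) of ICR mice gave a BKF and a KF line. Those of mice labelled Sox2-GFP gave a BKF, a KF and a KMF line. From Sox2-GFP mice aged 1.0 year, tail-tip fibroblasts gave a BKF line, a KMF line and a line with all 4 factors (4F), sampled at passages 8 and 18, and ear fibroblasts gave another 4F line. The groups without factors, all Sox2-GFP, were tail-tip fibroblasts at 1.0 and 2.5 years, skin fibroblasts at 2.5 years, and neural stem cells (NSC) of 2.5-year mice at passages 2 and 5. Embryonic, ear and ICR fibroblasts were not analysed here. The passage of the BKF, KF, KMF and ear lines is unknown, and its part in comparisons of these lines was not tested. The labels do not say whether the replicates of a line came from separate colonies, so p-values reflect only how far these libraries lie apart, which may be technical.

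Hox genes encode homeodomain transcription factors that give cells a position along the head-to-tail axis. Genes at the 3′ end of a cluster (low numbers) are switched on early and reach forward into the hindbrain, while genes towards the 5′ end (high numbers) are kept to more posterior levels of the spinal cord and trunk. The forebrain lies in front of all Hox domains. Cultured fibroblasts of adult skin keep a Hox pattern that reflects the body site they came from.

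The 8 genes lie within 82.6 kb at chr11:96271457-96354012 (GRCm38, mm10) on the plus strand, with Hoxb9 first and Hoxb2 last in the direction of transcription. The antisense gene Hoxb3os shares 2250 of the 4251 exon bases of Hoxb3 and 953 of the 3488 of Hoxb2, and Hoxb5os shares 100 of the 2786 of Hoxb5. Whether reads were counted by strand is not given in the sources used here, so reads of these genes and of their antisense partners may not be told apart. Values are the authors' normalised scores, in whole numbers, whose normalisation is not stated. Sorted by size, the values of the 28 libraries were the same to within 3 at every rank, and 10 genes in each library shared the top value of 92914. A value therefore gives a gene's place within its library on a common scale, and a change that moves the total RNA of a cell cannot be seen. The values are not known to be scaled by gene length, and levels are therefore compared between groups for a gene, not between genes. Log2 fold changes were computed from log2(value + 1) and are too small for genes of low value, and adjusted p-values are from limma over all 16275 genes, with a threshold of 0.05.

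Summed markers followed the labels of the groups. The summed value of 10 fibroblast markers was 219252 to 231172 in fibroblasts, 796 to 5072 in miNSC and 1372 to 2243 in NSC. The summed value of 10 neural stem cell markers was 223 to 343 in fibroblasts, 49866 to 130570 in miNSC and 55317 to 119344 in NSC. Within these sums Fabp7 alone was at 28060 to 92914 in miNSC and in NSC. Sox2, Sox1, Olig2 and Hes5 were listed at 0 in every fibroblast library. Single markers did not all follow: Sox1 was at 0 to 554 in miNSC (median 16) against 1039 to 1148 in NSC. It was at 0 in the ICR KF line, and the lowest miNSC value of Prom1 was also 0. For 4 macrophage and leukocyte markers the sum was 302 to 1204 in fibroblasts, 10 to 199 in miNSC and 11 to 14 in NSC. Their part in the results was not tested. Library totals were nearly equal, from 15563679 to 15571626, so sequencing depth is unknown and a value of 0 has no known limit. In such bulk libraries, fewer cells expressing a gene and less RNA per cell cannot be told apart.

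Every one of the 8 genes was listed at 0 in the NSC library of passage 2 and in that of passage 5. NSC was the only group of the 14 with no value above 0 across the cluster, as the map of all libraries shows. The housekeeping gene Tbp was at 332 or more in all 28 libraries, and Hoxa2, Hoxa3, Hoxa4 and Hoxa5 of the HoxA cluster were above 0 in both NSC libraries, with Hoxa5 at 74 and 339. In contrast, each fibroblast library had a value above 0 for all 8 genes. The difference between NSC and fibroblasts passed the test for 8 of 8 genes, all lower in NSC, against 31.1% of all tested genes called lower (34.9% higher, 65.9% either way). No fold change is given against values of 0. The 2 NSC libraries differed more from each other than replicates of other groups did, with a median absolute log2 difference over tested genes of 0.373 against 0.075 to 0.207.

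**Figure D1:**
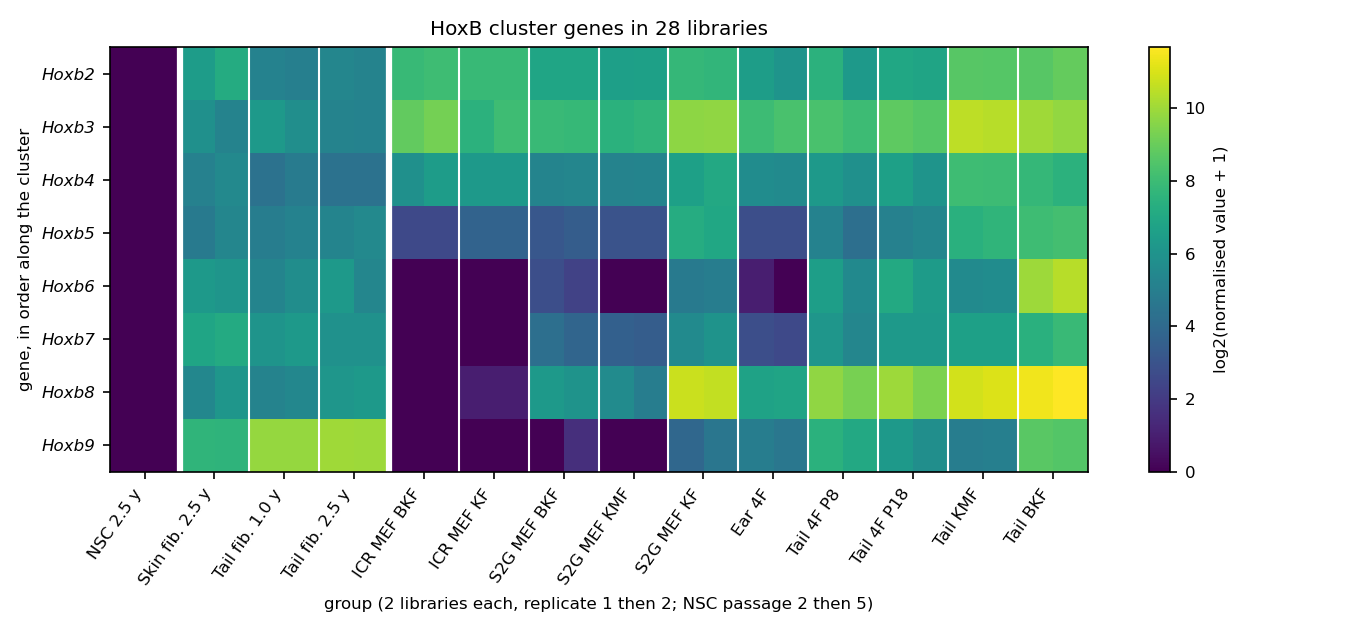
Normalised values of the 8 HoxB genes (rows, in order along the cluster) in 28 libraries (columns, 2 per group), as log2(value + 1) in the colour scale. NSC libraries are at 0 throughout, fibroblasts have values for all genes, and the induced lines differ most in the lower rows, from Hoxb5 to Hoxb9.

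Fibroblasts differed among themselves mainly at Hoxb9, the most posterior of the genes. Hoxb9 was at 902 and 910 in tail-tip fibroblasts of 1.0 year, at 1030 and 996 in those of 2.5 years, and at 197 and 196 in skin fibroblasts of 2.5 years. The skin libraries lay far below all tail-tip libraries, and at the same age the log2 fold change of skin against tail-tip was -2.36 ± 0.36 (SE, adjusted p = 9.96e-05). Skin fibroblasts were higher in Hoxb2 (log2 fold change 1.54 ± 0.27), at 88 and 144 against 40 and 36, and in Hoxb7 (1.08 ± 0.25), at 115 and 140 against 59 and 60. Hoxb4 was also higher in skin (0.92 ± 0.23, adjusted p = 0.00739), although without the second skin library its adjusted p was 0.0863. In total 3 of 8 genes were higher and 1 lower in skin, against 12% and 14.5% of tested genes (26.6% either way). Over the 3 fibroblast groups an F test passed for 6 of 8 genes (39.6% of tested genes), all but Hoxb5 and Hoxb6, and for Hoxb3, Hoxb4, Hoxb7 and Hoxb8 this was lost without at least 1 library (adjusted p from 0.0502 to 0.158). The summed macrophage and leukocyte markers, of which none was at 0, were 369 to 384 in skin and 1187 to 1204 in tail-tip fibroblasts of the same age, and their part in the differences was not tested.

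Age was compared in tail-tip fibroblasts. Between 2.5 and 1.0 years 1 of 8 genes was called higher and 1 lower, where 5.63% and 5.41% of tested genes were called (11% either way). Hoxb8, a gene of the trunk levels, was at 70 and 78 at 2.5 years against 36 and 42 at 1.0 year (log2 fold change 0.91 ± 0.25, adjusted p = 0.0291). Hoxb3 was at 36 and 35 against 79 and 54 (-0.86 ± 0.22, adjusted p = 0.0197). The calls were not firm: leaving out any of the 4 libraries ended the call of Hoxb8 (adjusted p from 0.0775 to 0.182), and leaving out any but the second 1.0-year library ended that of Hoxb3 (0.0745 to 0.228). The macrophage and leukocyte sum was 302 in each library at 1.0 year and 1187 to 1204 at 2.5 years, and its part was not tested.

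In the induced lines the anterior genes rose and the posterior ones went apart. Over 20 miNSC and 6 fibroblast libraries, Hoxb3, a gene of the hindbrain, ranged from 178 to 1480 in miNSC (median 359) and from 35 to 79 in fibroblasts (median 45.5). The ranges did not overlap, and the log2 fold change was 3.15 ± 0.10 (adjusted p = 3.23e-14). Hoxb2, which in the mouse hindbrain is a target of Egr2, had a range of 66 to 488 (median 192) against 32 to 144 (median 38), a rise of 1.72 ± 0.13. Hoxb4 had a range of 36 to 270 (median 78) against 20 to 44 (median 24), a rise of 1.60 ± 0.11. For both genes the 2 sides overlapped. Hoxb9 went the other way, from 196 to 1030 in fibroblasts (median 906) to between 0 and 410 in miNSC (median 23.5), with 7 of 20 libraries at 0 (log2 fold change -5.47 ± 0.17, adjusted p = 1.08e-14).

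For the genes in between, the mean of all lines hid opposite levels. Hoxb8 was at 36 to 78 in fibroblasts and anywhere from 0 to 3303 in miNSC (median 368), and it was called higher (log2 fold change 1.39 ± 0.12). Hoxb6 had 0 to 1383 in miNSC (median 16) against 38 to 80 in fibroblasts and was called lower (-2.19 ± 0.18). Hoxb7 had 0 to 244 (median 29) against 59 to 140 (-2.12 ± 0.12), and Hoxb5 had 5 to 288 (median 15) against 26 to 44 (-0.36 ± 0.12, adjusted p = 0.0102). For Hoxb6 and Hoxb5 the means of the values themselves went the other way, at 145.6 in miNSC against 58.8 in fibroblasts and 69.8 against 35.5. Together 4 of 8 genes were called higher and 4 lower, where 42.8% and 33.7% of tested genes were (76.5% either way), and the median of the 8 was 0.51 against 0.10 over all tested genes. When each group's mean stood for 1 sample, Hoxb2, Hoxb3, Hoxb4 and Hoxb9 kept their calls (adjusted p = 0.0169, 4.58e-04, 0.0229 and 0.0235). Under that fit Hoxb5, Hoxb6, Hoxb7 and Hoxb8 did not pass, with adjusted p = 0.838, 0.385, 0.259 and 0.653. The fall of Hoxb5 also did not pass without the second skin fibroblast library (adjusted p = 0.0644), with a pseudocount of 10 (0.539) or with 1.0-year tail-tip fibroblasts only (0.245).

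Against NSC, 8 of 8 genes were called higher in miNSC (20.9% of tested genes were higher, 19.7% lower and 40.6% either way), with NSC listed at 0. The genes Hoxb2, Hoxb3, Hoxb4 and Hoxb5 were above 0 in every miNSC library. Hoxb6 and Hoxb9 were at 0 in 7 of 20 miNSC libraries each, Hoxb7 in 4 and Hoxb8 in 2, so for these genes the 2 sides overlapped. With group means as samples, 3 genes passed, Hoxb2 (adjusted p = 0.00106), Hoxb3 (4.13e-04) and Hoxb4 (0.00308).

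**Figure D2:**
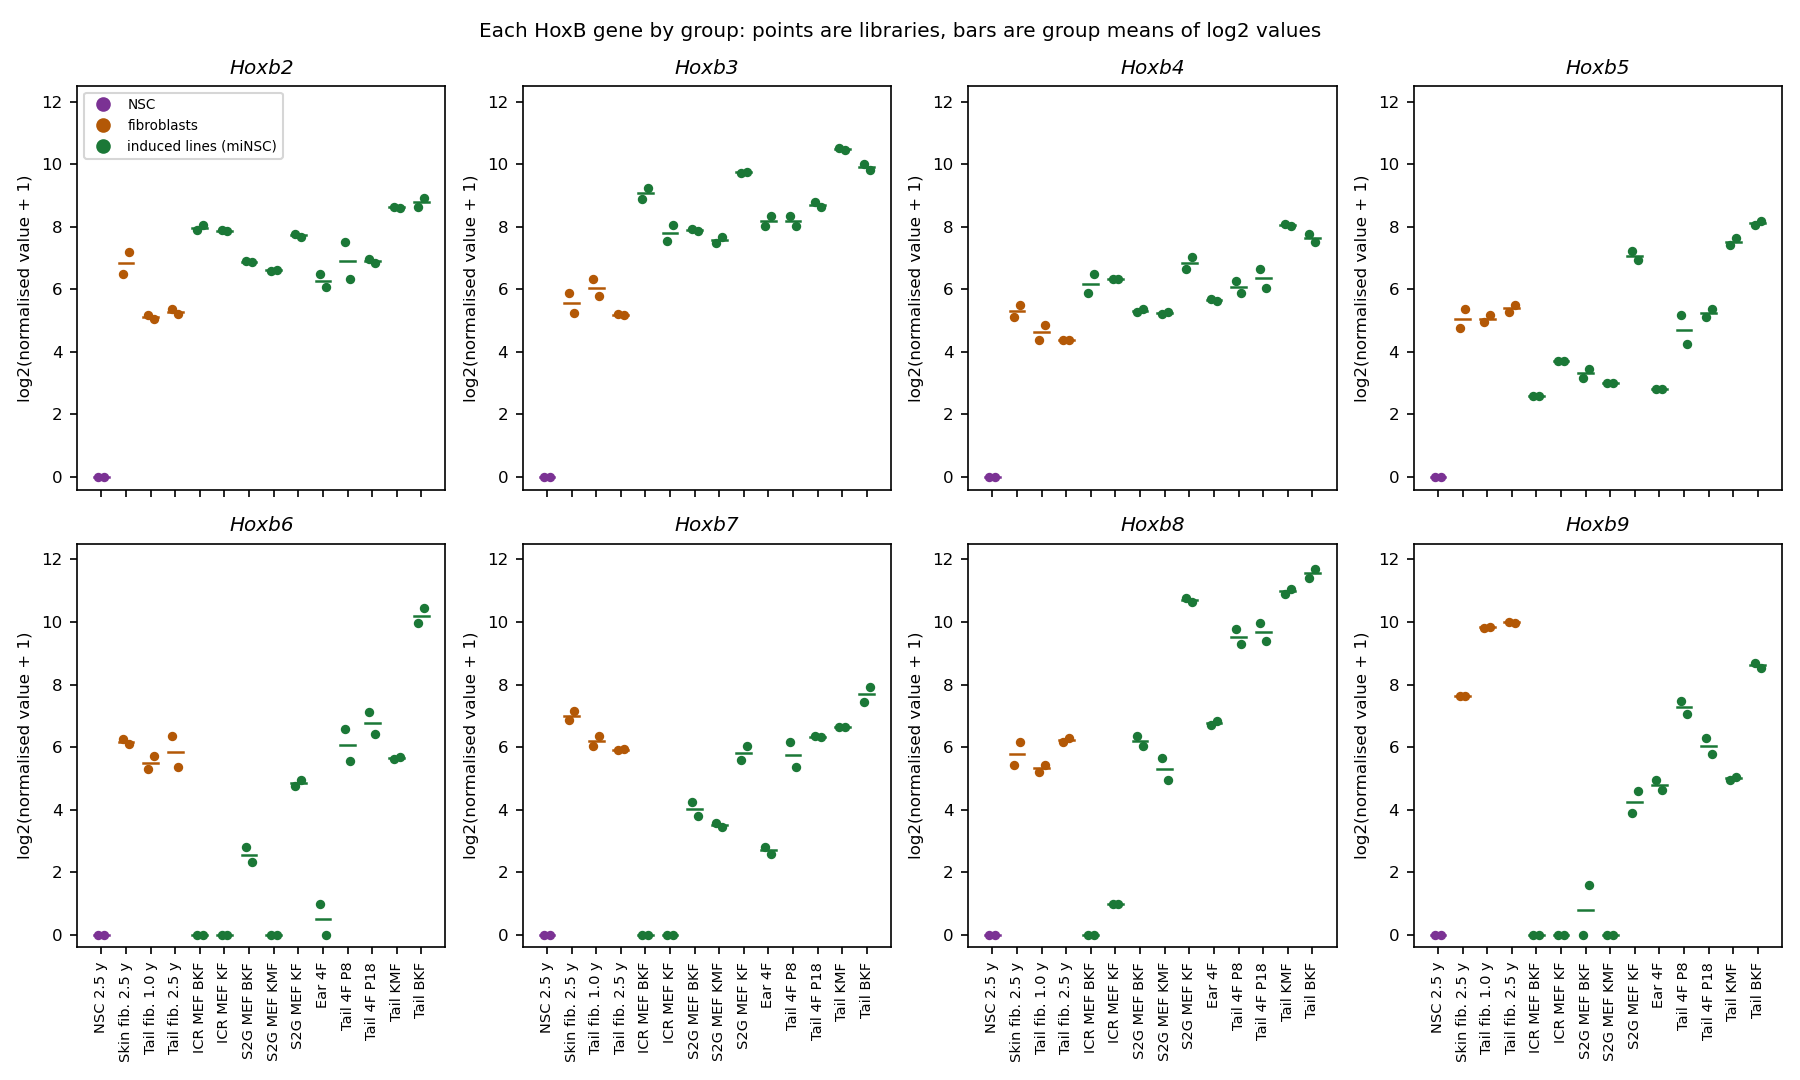
Values of each HoxB gene as log2(value + 1) on the vertical axis in the 14 groups; points are libraries and bars are the mean of 2. Hoxb2, Hoxb3 and Hoxb4 are above 0 in every fibroblast and induced library, while Hoxb8 runs from 0 in an ICR line to 3303 in the tail-tip BKF line, and Hoxb9 is highest in tail-tip fibroblasts.

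Only for the tail-tip lines were fibroblasts of the same tissue and age analysed here. Among 8 libraries of the BKF, KMF and 4F lines against 2 of 1.0-year tail-tip fibroblasts, 6 of 8 genes were higher, 1 lower and 1 not called (36.7% and 29.4% of tested genes were called higher and lower, 66% either way). Passages 8 and 18 of the 4F line entered as separate groups, each weighted like the BKF or the KMF line. The 8 libraries are thus not separate lines, and no fit with each line as 1 sample was made for this comparison. The median of the 8 log2 fold changes was 2.03, and that of all tested genes 0.10. Hoxb8 had the largest rise of the 8, from 36 and 42 in the fibroblasts to between 622 and 3303 in the lines (log2 fold change 5.11 ± 0.20, adjusted p = 8.64e-13). Hoxb3 (3.27 ± 0.18), Hoxb2 (2.70 ± 0.22) and Hoxb4 (2.40 ± 0.18) rose with no overlap between the sides. Hoxb5 (1.33 ± 0.20) and Hoxb6 (1.66 ± 0.31) rose as a mean of the lines, with overlap, but not in every line. In the 4F line Hoxb5 had means of 26.5 at passage 8 and 37 at passage 18, against 32.5 in the fibroblasts. Hoxb6 was at 48 and 50 in the KMF line, within the fibroblast range of 38 to 52. It was at 46 to 94 in the 4F line at passage 8, 84 to 138 at passage 18 and 1002 to 1383 in the BKF line.

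Hoxb9, the immediate neighbour of Hoxb8, fell in the same lines. It was at 902 and 910 in the fibroblasts and at 410 or less in each of the 8 line libraries (log2 fold change -3.09 ± 0.28, adjusted p = 4.76e-08). Hoxb7, on the other side of Hoxb8, was at 65 and 80 in the fibroblasts and 40 to 244 in the lines and was not called (0.41 ± 0.20, adjusted p = 0.0762). That value passed without the second library of the 4F line at passage 8 (adjusted p = 0.0151), without the first BKF library (0.0431) or with a pseudocount of 10 (0.0393).

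**Figure D3:**
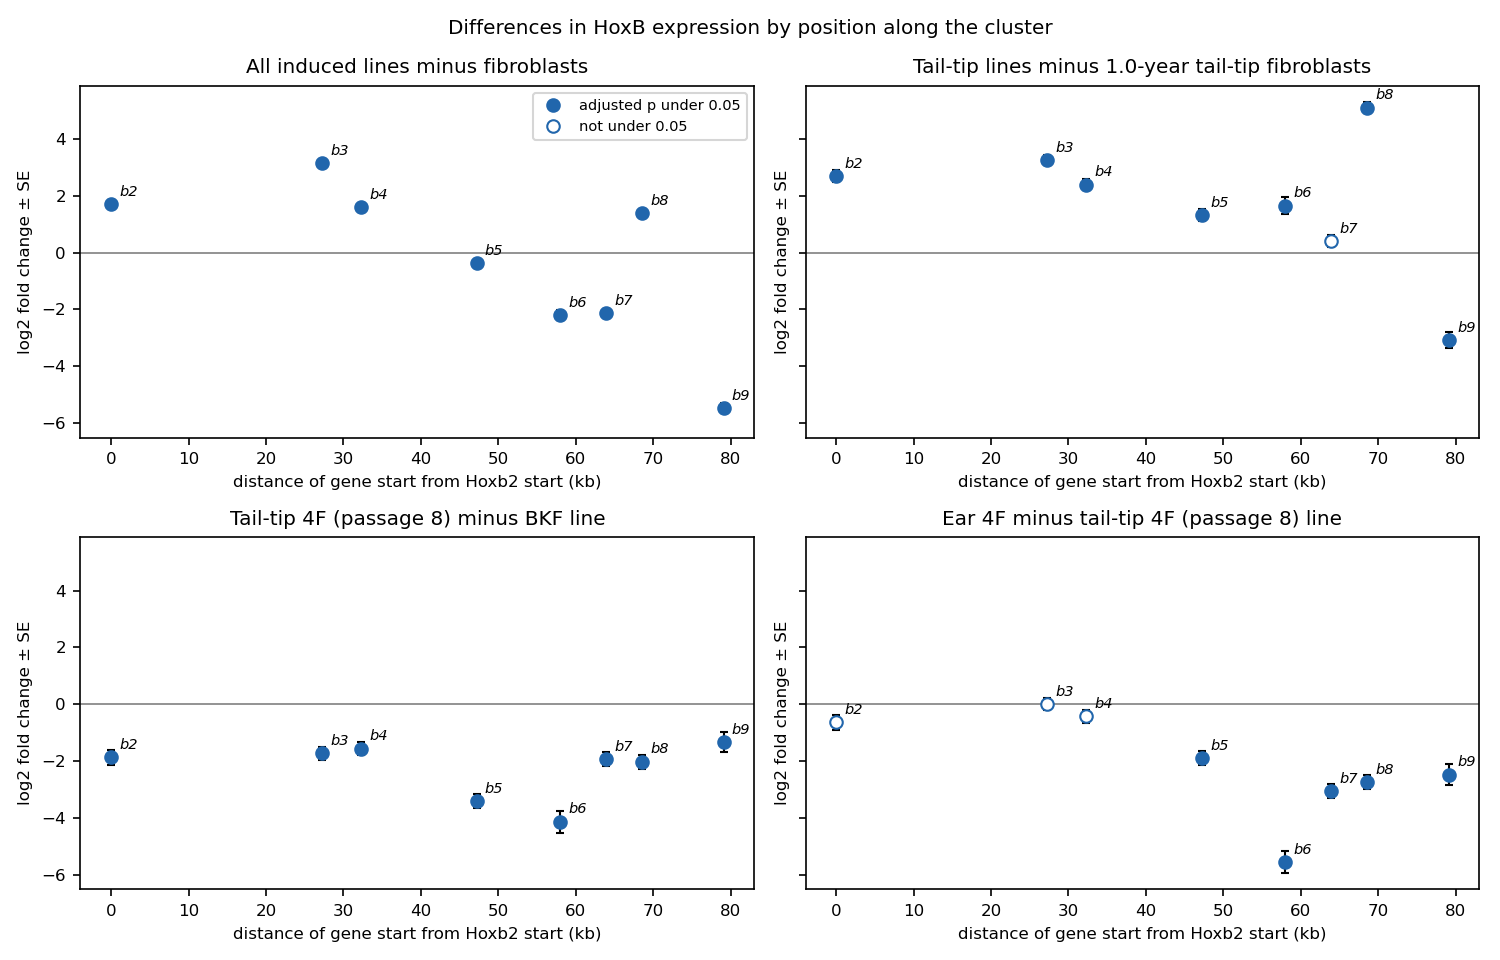
Log2 fold change ± SE of each HoxB gene (vertical axis) against the distance of its start from that of Hoxb2 in kb (horizontal axis) in 4 comparisons; filled points had an adjusted p under 0.05. Across all induced lines the values were 3.15 at Hoxb3, -2.19 at Hoxb6, -2.12 at Hoxb7, 1.39 at Hoxb8 and -5.47 at Hoxb9, and in tail-tip lines Hoxb8 stood at 5.11 between Hoxb7 at 0.41 and Hoxb9 at -3.09.

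The induced lines differed from each other in all 8 genes. A moderated F test over the 10 miNSC groups passed for 8 of 8 (68.2% of tested genes did), with adjusted p from 9.85e-15 for Hoxb8 to 4.62e-06 for Hoxb2. The SD of the 10 group means of log2 values was 0.86 for Hoxb2, 1.01 for Hoxb3 and 0.92 for Hoxb4, and 2.09 for Hoxb5, 3.57 for Hoxb6, 2.70 for Hoxb7, 4.11 for Hoxb8 and 3.25 for Hoxb9. The median SD over all tested genes was 0.37. The SD of Hoxb8 was above that of 99.9% of tested genes, and that of Hoxb2 above 78.5%. Each of Hoxb6 to Hoxb9 had at least 1 induced group at 0, so the size of their SDs depends on the pseudocount.

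Hoxb8 was listed at 0 in both ICR BKF libraries and at 1 in both ICR KF libraries. In Sox2-GFP embryonic lines it was at 80 and 64 with BKF, 49 and 30 with KMF, and 1737 and 1580 with KF. The ear 4F line had 104 and 114, and Hoxb8 was at 866 and 622 in the tail-tip 4F line at passage 8, 992 and 674 at passage 18, 1910 and 2130 with tail-tip KMF, and 2735 and 3303 with tail-tip BKF. The order was thus tail-tip BKF, tail-tip KMF, embryonic KF and tail-tip 4F, and these did not overlap except for passages 18 and 8. The Sox2-GFP embryonic BKF and KMF lines overlapped with fibroblasts.

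Promoter windows were at hand for Hoxb8 and Hoxb4 of the 8 genes. That of Hoxb8, the gene that varied most over the lines, is shown beside that of Hoxb4, whose lowest and highest line means, 37 and 264.5, were within 7.15-fold. Each sequence runs from 250 bases before to 50 after the gene start (RefSeq, GRCm38.p6, plus strand), at chr11:96281655-96281954 for Hoxb8 and chr11:96318017-96318316 for Hoxb4. Capitals mark matches to TTTATNG, a motif of the kind bound by Cdx and posterior homeodomain proteins, searched on both strands.
Hoxb8: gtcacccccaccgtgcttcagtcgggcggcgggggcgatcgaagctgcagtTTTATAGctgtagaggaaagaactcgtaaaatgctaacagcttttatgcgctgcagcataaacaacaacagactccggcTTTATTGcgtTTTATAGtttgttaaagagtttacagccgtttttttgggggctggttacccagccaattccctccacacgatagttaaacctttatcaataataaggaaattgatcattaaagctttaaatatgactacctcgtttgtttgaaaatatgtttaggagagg
Hoxb4: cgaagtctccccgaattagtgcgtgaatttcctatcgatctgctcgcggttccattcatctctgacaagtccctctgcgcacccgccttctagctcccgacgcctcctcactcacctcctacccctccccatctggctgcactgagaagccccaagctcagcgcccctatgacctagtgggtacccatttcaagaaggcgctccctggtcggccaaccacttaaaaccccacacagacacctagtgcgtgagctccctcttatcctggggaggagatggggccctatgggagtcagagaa
The Hoxb8 window held 3 matches to TTTATNG, all on the plus strand, and that of Hoxb4 held 0. Of 32851 promoter windows of the same length, 10.9% held at least 1. The Hoxb8 window also held 2 matches to TATAAA on the minus strand, which overlap with capitals (13.6% of windows), 1 to CCAAT (37.4%) and 1 to the Pbx-Hox type motif TGATNNAT (8.8%). The nuclear receptor half-site AGGTCA matched once in Hoxb4 on the minus strand and not in Hoxb8 (16.3% of windows). The GC content was 42.3% for Hoxb8, higher than 14.9% of windows, and 58.0% for Hoxb4, higher than 65.4%. These matches describe letters and are not shown to be bound.

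Hoxb6, Hoxb7 and Hoxb9 were, like Hoxb8, at or near 0 in ICR lines. All 4 ICR libraries were at 0 for each of the 3 genes. Hoxb6 reached its highest level in the tail-tip BKF line, at 1002 and 1383, far above the next group, the tail-tip 4F line at passage 18, at 138 and 84. In the tail-tip KMF line it was at 48 and 50. Hoxb6 was at 0 in both embryonic KMF libraries, 6 and 4 in the Sox2-GFP embryonic BKF line, 26 and 30 in the KF line and 1 and 0 in the ear 4F line. Hoxb9 was at 410 and 372 in tail-tip BKF, 178 and 133 in tail-tip 4F at passage 8, 78 and 54 at passage 18, 30 and 32 in tail-tip KMF and 30 and 24 in ear 4F. Among embryonic lines Hoxb9 stood above 2 only in Sox2-GFP KF, at 14 and 23.

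Hoxb7 was at 172 and 244 in tail-tip BKF and 99 in each tail-tip KMF library. In the embryonic Sox2-GFP lines it was at 47 and 64 with KF, 18 and 13 with BKF and 11 and 10 with KMF. Hoxb5 had the same order of extremes, at 267 and 288 in tail-tip BKF, 168 and 197 in tail-tip KMF, 148 and 122 in embryonic KF, and 12 or less in the other 4 embryonic groups and the ear line. The tail-tip 4F line lay between, at 35 and 18 at passage 8 and 34 and 40 at passage 18.

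Of the anterior genes, Hoxb3 and Hoxb4 had the same top 3 groups by mean as Hoxb5 and Hoxb8, with tail-tip KMF before tail-tip BKF. Hoxb3 was highest in tail-tip KMF, at 1480 and 1392, then in tail-tip BKF at 1035 and 894, in Sox2-GFP KF at 842 and 860 and in ICR BKF at 473 and 605. It was lowest in Sox2-GFP embryonic KMF at 178 and 201. Hoxb4 was at 270 and 259 in tail-tip KMF and 36 and 38 in embryonic KMF, and Hoxb2 was at 400 and 488 in tail-tip BKF and 89 and 66 in the ear line. In ICR lines Hoxb2 was at 237 and 264 with BKF and 236 and 231 with KF, behind only tail-tip BKF and KMF among the induced groups by mean, while Hoxb3 in ICR KF, at 184 and 268, was lower by mean than in all but embryonic KMF. Over all 14 groups in order of level, 6 to 9 of the 13 neighbouring pairs did not overlap for Hoxb2, Hoxb3, Hoxb4, Hoxb5, Hoxb7, Hoxb8 and Hoxb9, and 5 did not for Hoxb6. The groups were ordered by these same values, and no such count was made over all tested genes.

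Origin was compared within Sox2-GFP lines of the same cocktails, tail-tip BKF and KMF against embryonic BKF and KMF. All 8 genes were higher in the tail-tip lines (15.8% of tested genes were higher, 17.2% lower and 33% either way), and for each of them no library of the 2 sides overlapped. How many of all tested genes had no overlap was not counted. The median log2 fold change was 4.03 (0.01 over all tested genes). Hoxb8 ranged from 1910 to 3303 in tail-tip and from 30 to 80 in embryonic lines (log2 fold change 5.53 ± 0.18, adjusted p = 4.49e-12), and Hoxb5 from 168 to 288 and from 7 to 10 (4.66 ± 0.18). Hoxb2 differed least, at 386 to 488 against 96 to 118 (1.95 ± 0.19). Of 4 listed skeletal muscle markers 2 had values, Pax7 and Des. Their sum was 142 to 257 in the embryonic and 0 to 4 in the tail-tip lines, where Pax7 was at 0. Des was at 6 or less in every miNSC library, so the sum was nearly all Pax7 and is not shown to mark muscle. Of 10 neural stem cell markers 6 were higher in tail-tip lines and 1 lower, with sums of 64097 to 124215 against 65364 to 130570. The part of these markers was not tested. The comparison rests on 2 lines per origin: taking each line's mean as 1 sample, 0 of 8 genes passed in limma (adjusted p from 0.0855 for Hoxb5 to 0.269 for Hoxb6), while 8 had an unadjusted p under 0.05. The share of all tested genes that passed this fit was not counted. The Sox2-GFP embryonic KF line, outside this comparison, was far above the embryonic lines compared, with Hoxb8 at 1737 and 1580 and Hoxb5 at 148 and 122. The tail-tip 4F line was also outside it. By mean the embryonic KF line exceeded the 4F line at both passages in Hoxb2, Hoxb3, Hoxb4, Hoxb5 and Hoxb8 (1658 against 744 and 833). It was below the 4F line in Hoxb6 and Hoxb9, and between its passages in Hoxb7. The starting embryonic fibroblasts were not analysed here, so the origin of the lines and the reprogramming of each line cannot be told apart. These lines are of unknown passage, which may differ between the sides.

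Tissue was compared between the ear and the tail-tip 4F line at passage 8, both from 1.0-year mice. Here 5 of 8 genes were lower in the ear line and the rest not called (13.8% of tested genes were lower, 13.3% higher and 27.2% either way). The 5 were the genes from Hoxb5 to Hoxb9, of which Hoxb5 was not called in a fit over these groups only (adjusted p = 0.0573). Hoxb7 was at 6 and 5 in the ear line against 70 and 40 (log2 fold change -3.06 ± 0.25), while Hoxb6 had 1 and 0 against 94 and 46 (-5.56 ± 0.39). Hoxb3 was at 260 and 326 against 326 and 258 (0.01 ± 0.22), and Hoxb4 (-0.42 ± 0.23) and Hoxb2 (-0.64 ± 0.27, adjusted p = 0.0984) were not called. Hoxb2 passed without the second tail-tip library (adjusted p = 0.00113), which was lower than the first in all 8 genes. The passage of the ear line is not given, and there is 1 line per tissue, so tissue, line and passage cannot be told apart.

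Strain was compared between ICR and Sox2-GFP embryonic lines with BKF and KF. The genes Hoxb5 to Hoxb9 were lower in ICR lines (5 of 8, against 19.1% of tested genes) and Hoxb2 was higher (1 of 8, against 19.3%, with 38.4% either way). There were 2 lines a side, all of unknown passage, so strain, passage and the reprogramming of each line cannot be told apart. The ranges of Hoxb5, at 5 to 12 in ICR and 8 to 148 in Sox2-GFP, and of Hoxb9, at 0 and 0 to 23, overlapped. The Sox2-GFP BKF line was at 8 and 10 for Hoxb5 and at 0 and 2 for Hoxb9. For Hoxb8 the 4 ICR libraries were at 0 or 1 and the 4 Sox2-GFP libraries between 64 and 1737 (log2 fold change -7.94 ± 0.18, adjusted p = 1.21e-14). With ICR at 0 or 1 the size of this fold change depends on the pseudocount, and it went to -5.14 among the alternative settings. Hoxb6, Hoxb7 and Hoxb9 were listed at 0 in ICR. Hoxb2 was at 231 to 264 in ICR and 117 to 218 in Sox2-GFP (0.61 ± 0.19, adjusted p = 0.0196), a call lost without the second ICR BKF (0.0616) or the second Sox2-GFP KF library (0.056). Hoxb4 (0.18 ± 0.16) and Hoxb3 (-0.38 ± 0.16, adjusted p = 0.068) were not called. Hoxb3 passed without the second ICR KF library (adjusted p = 0.0252) or with a pseudocount of 10 (0.0491).

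Cocktails were compared within an origin and strain, with 1 line per cocktail, so cocktail and line cannot be told apart. Since the passage of BKF, KF and KMF lines is unknown, cocktail and passage cannot be told apart either. In Sox2-GFP embryonic lines 8 of 8 genes were lower in the BKF than in the KF line (18.5% of tested genes, with 19.2% higher and 37.7% either way). Likewise 8 of 8 were lower in the KMF than in the KF line (19.2% of tested genes, with 19.9% higher and 39.1% either way), and both comparisons share the KF libraries. Hoxb8 fell from 1737 and 1580 to 80 and 64 with BKF (log2 fold change -4.51 ± 0.25, adjusted p = 5.10e-09) and to 49 and 30 with KMF (-5.40 ± 0.25). Hoxb5 fell from 148 and 122 to 8 and 10 (-3.77 ± 0.25) and to 7 in each KMF library (-4.08 ± 0.25). Hoxb2 had the smallest differences of the 8, -0.84 ± 0.27 (adjusted p = 0.0238) and -1.11 ± 0.27 (0.00404). The first of these did not pass when any of its 4 libraries was left out, with adjusted p from 0.0718 to 0.105. In ICR lines 1 of 8 genes was higher and 2 lower in BKF than in KF (6.69% and 6.42% of tested genes, 13.1% either way). Hoxb3 was at 473 and 605 against 184 and 268 (1.26 ± 0.22, adjusted p = 8.54e-04). Hoxb5 was at 5 in each BKF and 12 in each KF library (-1.12 ± 0.25, adjusted p = 0.00622, or 0.064 with a pseudocount of 10). Hoxb8 was called at values of 0 and 1, and its call was lost without any of the 4 libraries (adjusted p from 0.0683 to 0.075). The summed fibroblast markers were 796 to 903 in ICR BKF, with Col1a2, Pdgfrb and Dcn at 0, and 4399 to 5072 in ICR KF, with Col1a2 at 0, and their part was not tested.

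**Figure D4:**
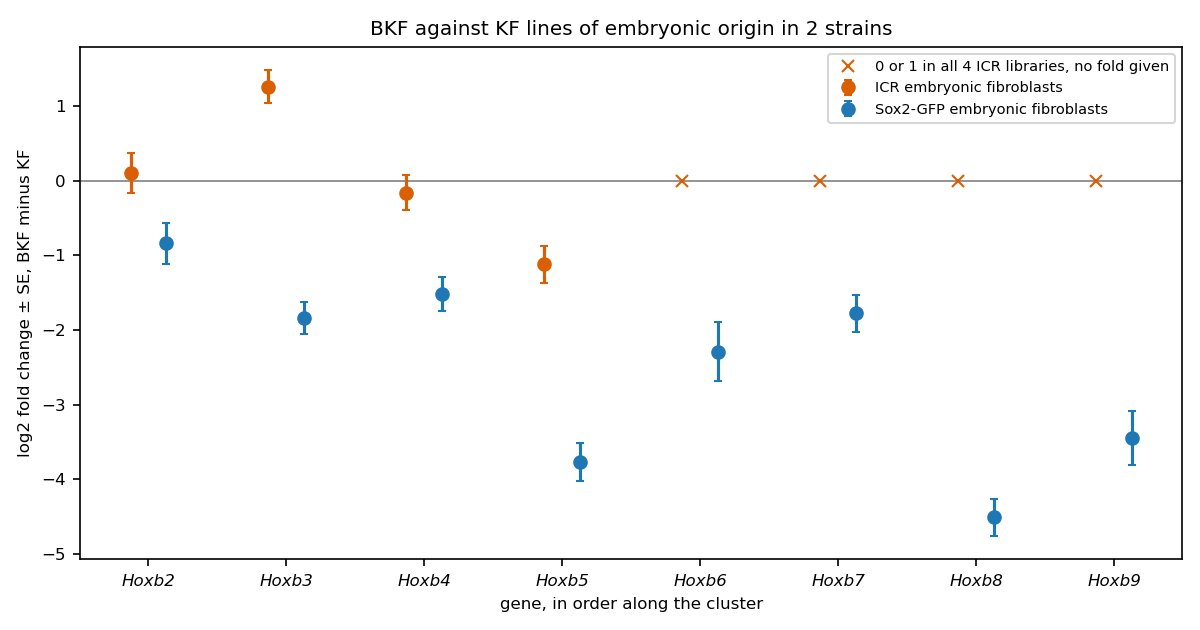
Log2 fold change ± SE of BKF against KF lines of embryonic origin (vertical axis) for the 8 HoxB genes (horizontal axis) in ICR and Sox2-GFP cells. All Sox2-GFP values lie below 0, from -0.84 to -4.51, and the ICR values that could be given lie between -1.12 and 1.26; crosses mark genes at 0 or 1 in all ICR libraries.

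Among tail-tip lines, all 8 genes were lower in the 4F line at passage 8 than in the BKF line (12.9% of tested genes, with 13.1% higher and 26.1% either way). Hoxb6 was at 94 and 46 against 1002 and 1383 (log2 fold change -4.14 ± 0.39, adjusted p = 1.64e-06), and Hoxb5 at 35 and 18 against 267 and 288 (-3.41 ± 0.25). The other 6 log2 fold changes lay between -2.03 for Hoxb8 and -1.34 for Hoxb9. In a fit over these groups only, Hoxb2 (adjusted p = 0.0934) and Hoxb7 (0.0663) were not called. The call of Hoxb9 was lost without the second 4F library (adjusted p = 0.0852) or the first BKF library (0.0543). In the KMF line 3 of 8 genes were lower than in the BKF line (6.75% of tested genes, with 6.22% higher and 13% either way). These were Hoxb6, at 48 and 50 (log2 fold change -4.56 ± 0.39), Hoxb9, at 30 and 32 against 410 and 372 (-3.61 ± 0.36), and Hoxb7 (-1.04 ± 0.25, adjusted p = 0.0111). Hoxb7 was not called without the second BKF library (0.159) or either KMF library (0.0676 and 0.068). Hoxb8, which lies between Hoxb7 and Hoxb9, was at 1910 and 2130 against 2735 and 3303 and was not called (-0.58 ± 0.25, adjusted p = 0.162). In embryonic Sox2-GFP lines KMF was lower than BKF in 2 of 8 genes (4.96% of tested genes, with 5.3% higher and 10.3% either way). These were Hoxb8 (-0.88 ± 0.25, adjusted p = 0.0357) and Hoxb6, listed at 0 in KMF against 6 and 4, which was not called with a pseudocount of 10 (adjusted p = 0.248). The call of Hoxb8 was lost without either BKF library or the second KMF library (adjusted p from 0.0679 to 0.382). Without the first BKF library Hoxb9 was called too, at 2 against 0 in both KMF libraries (adjusted p = 0.00204).

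Passage was compared in the tail-tip 4F line. At passage 18 against passage 8, Hoxb9 was lower, at 78 and 54 against 178 and 133 (log2 fold change -1.23 ± 0.36, adjusted p = 0.0129), and 7 genes were not called. In this comparison 17.6% of tested genes were called lower, 17.5% higher and 35.1% either way. The call of Hoxb9 was lost without the second library of passage 18 (adjusted p = 0.125) or the first of passage 8 (0.108). Without the latter, Hoxb5 (1.00, adjusted p = 0.00692) and Hoxb7 (0.97, adjusted p = 0.0123) were called higher.

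Over the 10 miNSC groups, the genes varied together most where they lay close. Correlations of the group means of log2 values are given as a description, since the groups share origins and cocktails. Pearson's r was 0.97 for Hoxb7 and Hoxb8, 0.91 for Hoxb3 and Hoxb4, 0.90 for Hoxb6 and Hoxb7 and 0.88 for Hoxb4 and Hoxb5. It was lowest for Hoxb2 and Hoxb8, at 0.15. For the 7 pairs of neighbours r was 0.78 to 0.97 (median 0.88), and for the 21 other pairs 0.15 to 0.88 (median 0.62). Among Hoxb2, Hoxb3 and Hoxb4 it was 0.78 to 0.91, and among Hoxb5 to Hoxb9 0.70 to 0.97.

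**Figure D5:**
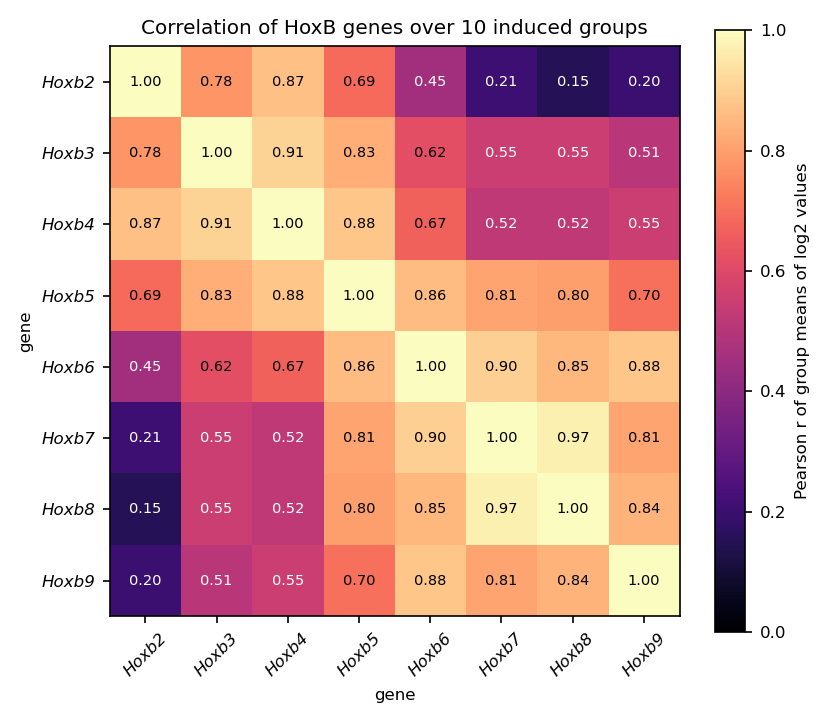
Pearson's r between HoxB genes over the group means of 10 induced groups (log2 values; both axes list the genes in order along the cluster, and the colour scale gives r). Neighbours have r of 0.78 to 0.97, and Hoxb2 has its lowest values with Hoxb7, Hoxb8 and Hoxb9, at 0.21, 0.15 and 0.20.

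The genes outside the set whose pattern over the 14 group means was most like that of a member had r from 0.796 to 0.919. For Hoxb2 these were Gm3667 (0.909), Rps29 (0.904) and Pax9 (0.892), and for Hoxb3 Pcdha5 (0.906), Bex3 (0.901) and Gm44837 (0.894). Hoxb4 had Rps29 (0.889), Pigyl (0.885) and Osr2 (0.872), Hoxb5 had Mrpl24 (0.798) and Eif3m (0.796), and Hoxb6 had Slc35g2 (0.851), Ubl5 (0.834) and Txndc12 (0.815). Hoxb7 had Slc35g2 (0.919), Higd2a (0.89) and Psmd9 (0.888), Hoxb8 had Eps8l1 (0.897), Ppm1b (0.881) and Gm42047 (0.877), and Hoxb9 had Tmsb10 (0.897), 3110040N11Rik (0.889) and Mical2 (0.884). For Hoxb3 and Hoxb4, r with each other was 0.97 over the same groups, and for Hoxb2 and Hoxb4 0.98, above that of any gene outside the set.

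Elsewhere in the locus, Hoxb13, a gene of the tail end of the axis, was the only one of 11 listed genes in and beside the cluster with values, and the others were not analysed here. Hoxb13 was at 1346 and 1378 in tail-tip fibroblasts of 1.0 year, 844 and 686 at 2.5 years and 1 and 3 in skin fibroblasts. In miNSC it was at 12 or less in every library and at 0 in 13 of 20. In tail-tip lines it was at 0 in every KMF and 4F library and at 5 to 10 in the BKF line. Against their fibroblasts it fell by 9.66 on the log2 scale, a size that depends on the pseudocount. The long intergenic RNA gene Gm53, which lies 99.4 kb from the start of Hoxb2, upstream of Hoxb9, and was picked after its values were seen, was at 596 and 528 in 1.0-year tail-tip fibroblasts. In the lines it was at 46 or less, with 46 and 37 in the tail-tip 4F line at passage 8.

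Of 16 paralogs of these genes in the other clusters, 14 were tested. In miNSC against fibroblasts 8 were higher and 6 lower, with a median of 2.44 (0.10 over all tested genes). Higher were Hoxa2, Hoxa3, Hoxa4, Hoxa5, Hoxa7, Hoxd4, Hoxd8 and Hoxd9, and lower were Hoxa9, Hoxc4, Hoxc5, Hoxc6, Hoxc8 and Hoxc9. Hoxc8 was at 49 to 566 in fibroblasts and 10 or less in miNSC, in contrast to Hoxb8 of the same paralog group. Hoxd8 was at 404 and 336 in the ICR BKF line, where Hoxb8 was at 0, and at 1 and 2 in the tail-tip KMF line, where Hoxb8 was at 1910 and 2130. Hoxa9 was at 680 to 1358 in the tail-tip 4F line and at 8 or less in the other lines, while Hoxb9 was highest in tail-tip BKF.

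Among factors that act with or on Hox genes, TALE proteins are the DNA-binding partners of Hox proteins. Of 9 TALE genes, 6 were higher and 2 lower in miNSC than in fibroblasts, with a median of 1.12. Meis1 (log2 fold change 1.59 ± 0.06), Meis2 (1.65 ± 0.09) and Pknox1 (1.34 ± 0.05) were among those that rose. Retinoic acid activates 3′ Hox genes in the embryo. Of 14 tested retinoid pathway genes 1 was higher and 13 lower, with a median of -2.31. Rarb, a retinoic acid receptor that is itself induced by retinoic acid, rose (3.86 ± 0.16), at 24 to 608 in miNSC and 2 to 389 in fibroblasts, while the receptor gene Rarg (-4.87 ± 0.16) and Crabp1, a retinoic acid binding protein (-9.00 ± 0.17), fell.

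Polycomb proteins keep Hox genes silent, and Trithorax proteins keep them active. Of 18 Polycomb genes 15 were higher and 2 lower (median 0.91), among them Jarid2 (2.59 ± 0.08), Phc1 (2.28 ± 0.07), Cbx2 (3.18 ± 0.11) and Mtf2 (0.88 ± 0.04). Of 11 Trithorax and H3K27 demethylase genes 10 were higher and 1 was not called (median 0.95), with Kdm6b, a demethylase gene, at 1.59 ± 0.10 and the methyltransferase gene Kmt2c at 1.71 ± 0.12. Of 11 listed hindbrain and axial regulators 5 had values, of which 3 were higher and 1 lower. Gbx2 rose (4.2 ± 0.28), and Egr2 was at 93 to 3820 in miNSC and 218 to 486 in fibroblasts (0.75 ± 0.34, adjusted p = 0.0566). The members of these lists are described by counts beside those of all tested genes, 42.8% higher and 33.7% lower. NSC, with all 8 HoxB genes at 0, differed from fibroblasts in much the same way (34.9% of tested genes higher, 31.1% lower). There 7 of 9 TALE genes were higher and 0 lower, and 2 of 14 retinoid genes were higher and 11 lower. Of the Polycomb genes 13 were higher and 2 lower, and of the Trithorax and demethylase genes 9 and 0. Rarb was at 490 to 616 in NSC. The part of these lists in HoxB levels was not tested. Between tail-tip and embryonic lines, where 15.8% of tested genes were higher and 17.2% lower, 5 of 18 Polycomb genes were higher and 13 not called, with a median of 0.06, and 5 of 14 retinoid genes were higher and 2 lower, among them Rarb at 330 to 608 in tail-tip and 103 to 435 in embryonic lines (1.06 ± 0.24).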

How the data were processed

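The deposited table of the authors gave 1 normalised score per gene and library, as whole numbers, for 17295 genes and 28 libraries. How it was normalised and filtered is not given in the sources used here. RSEM, Bowtie2 2.0 and mm10 are named without role, per the submitters' processing notes. Per the labels' protocols, RNA was extracted with Trizol and enriched with oligo(dT) beads. All libraries hold nearly the same set of values, so these values do not give depth.

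Values were changed to log2(value + 1). Genes with a mean of at least 10 were tested with limma 3.58.1 (R 4.3.3), a single model with 1 term per group, a variance trend and Benjamini-Hochberg adjustment over 16275 genes. Groups were taken from the titles. The pipeline was tested on simulated data. Python 3.11.15 with pandas 2.3.3, numpy 2.4.6 and matplotlib 3.10.9 was used for the rest. Gene positions are from GENCODE M21 (GRCm38). Members and lists were chosen with earlier results of these data known. All 8 members are named. From lists, at most 4 genes with the smallest adjusted p were to be named, and Rarb, Egr2, Hoxa5, Hoxa9, Hoxc8 and Gm53 were chosen after their values were seen. A few genes that the naming rules select are not reported here. Alternatives are given at the end.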

Additional observations from a re-analysis of the deposited data

Results flagged for a closer look

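The difference between BKF and KF lines depended on the strain for Hoxb3, Hoxb4 and Hoxb5, by the limma interaction over all genes, where 15.8% of tested genes were called in that direction. The interaction is the log2 fold change of BKF against KF in ICR minus that in Sox2-GFP embryonic lines. It was 3.10 ± 0.31 for Hoxb3 (adjusted p = 2.06e-06), which was higher with BKF in ICR and lower in Sox2-GFP. It was 2.65 for Hoxb5 and 1.36 for Hoxb4. Hoxb6 (2.29), Hoxb7 (1.78), Hoxb8 (3.51) and Hoxb9 (3.45) also passed, but their ICR libraries were all at 0 or 1, so that no fall could be measured there and these values restate those of the Sox2-GFP lines. Hoxb2 was not called (0.94 ± 0.39, adjusted p = 0.0775). In a fit over these 4 groups only, Hoxb7 was not called (adjusted p = 0.117) and Hoxb2 was (0.00119). There is 1 line per strain and cocktail, each of unknown passage, so line, strain, cocktail and passage cannot be told apart.

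The difference between KMF and BKF lines depended on origin for 2 of 8 genes (6.77% of tested genes in that direction), with tail-tip minus embryonic values of -1.99 ± 0.55 for Hoxb6 (adjusted p = 0.026) and -2.82 ± 0.50 for Hoxb9 (adjusted p = 0.00149). In the embryonic lines both genes were at 6 or less, near the low end of the scale, and the call of Hoxb6 was lost on leaving out any of 6 of the 8 libraries. For Hoxb9 leaving out single libraries gave -3.61 to -2.03, and it was not called in a fit over these groups only (adjusted p = 0.0628).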

How the results depend on the processing

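Beside leaving out libraries, 135 counts of called genes stayed within 1.5 times and 10 fell further, and no called gene reversed under any alternative run. Without the filter, with a robust prior, without the variance trend, with libraries scaled to equal medians and with the replicate block no gene changed its call, and with the replicate block 8 of 8 genes were called in miNSC against fibroblasts. Scaling could change little, since the libraries hold nearly the same set of values (factors of 0.9627 to 1.03), and it does not test the authors' normalisation. Equal replicate numbers did not pair libraries, since over 78 pairs of groups the replicate differences correlated at -0.05 to 0.07. Taking group means as samples, calls fell from 8 to 4 for miNSC against fibroblasts, to 3 against NSC and to 0 for origin (8 with an unadjusted p under 0.05). For these fits on group means the share of all tested genes that passed was not counted. With a pseudocount of 10 the calls fell to 1 for BKF against KF in ICR and to 1 for KMF against BKF in embryonic lines. A fit over only the groups compared left 0 for both of these and for passage (1, 3 and 2 with an unadjusted p under 0.05 in limma), 1 for age and 3 of 6 among fibroblasts. In it 5 genes of the ICR pair and 3 of the embryonic pair could not be fitted or were filtered, and otherwise the cause was not tested. Leaving out single libraries gave 1 to 2 calls for KMF against BKF in embryonic lines, 0 to 2 for passage, 0 to 1 for age, and 1 to 2 for the interaction of origin and cocktail. Where a group was left with 1 library, it was assumed to vary like the others. As depth is unknown, values at 0 set no limit.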
